A study of Mus musculus with 4 samples.

Results

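The miR-106b~miR-25 and miR-106a~miR-363 clusters are the paralogs of the oncogenic miR-17~92 cluster. Of the 710 miRNA names on the array, 7 belonged to them when taken by name, with passenger strands left out. They were mmu-miR-106b, mmu-miR-93 and mmu-miR-25 of the first cluster and mmu-miR-106a, mmu-miR-18b, mmu-miR-20b and mmu-miR-363 of the second (the species prefix mmu is dropped from here on), and no member was present under a separate name for an arm. All 7 were measured in every clone and all entered the test.

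Murine embryonic fibroblasts (MEFs), connective tissue cells, came from embryos of mixed C57BL/6 × 129/Sv background at embryonic day 9.5 and had been immortalized by the 3T3 protocol. RNA of 2 wild type (wt) clones was compared with RNA of 2 clones in which the AP-1 gene Junb had been knocked out (Junb-/-). The labels name no further allele and no agent. The comparison asks which miRNAs depend on JUNB. Each sample is 1 immortalized clone, and no source used here ties clones to embryos, so p-values measure only the spread between these clones. The number of arrays limits the precision.

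The 3 clusters arose by duplication and encode miRNAs that fall into a few families with a shared seed, the bases near the 5′ end that pair with target mRNAs. The families with the miR-17 and miR-25 seeds are known to repress inhibitors of the cell cycle such as Cdkn1a and promoters of cell death such as Bcl2l11, and thereby favour proliferation. miR-106b~miR-25 is transcribed together with its host gene Mcm7, which encodes a subunit of the helicase that unwinds DNA at replication origins and is induced by E2F factors in dividing cells. miR-106a~miR-363 has no such host, and is known to be weakly expressed in many adult tissues.

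All 7 members matched a mature miRNA in the RefSeq table of GRCm38.p6. The older names of the array without an arm stand for the arm now called 5p, except for miR-25 and miR-363, where they stand for 3p. The hairpins of miR-106b~miR-25 lie in the order Mir106b, Mir93 and Mir25 within Mcm7, over 498 bases of the minus strand (chr5:138165321-138165818). Those of miR-106a~miR-363 lie on the minus strand of the X chromosome over 875 bases (chrX:52741693-52742567), in the order Mir106a, Mir18b, Mir20b, Mir19b-2, Mir92-2 and Mir363. The mature sequences are shown to make clear how close the members are, with the seed (bases 2 to 8) in capitals. The first group shares the miR-17 seed, and its last pair comes from miR-17~92.
miR-106b: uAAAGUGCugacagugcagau
miR-93: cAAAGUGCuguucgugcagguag
miR-106a: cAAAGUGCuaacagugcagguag
miR-20b: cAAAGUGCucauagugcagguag
miR-17: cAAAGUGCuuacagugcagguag
miR-20a: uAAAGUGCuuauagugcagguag

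The second group shares the miR-18 seed and the third the seed of miR-25 and miR-92a. miR-18a and miR-92a are shown as the paralogs from miR-17~92.
miR-18b: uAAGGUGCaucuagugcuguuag
miR-18a: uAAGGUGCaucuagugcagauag
miR-25: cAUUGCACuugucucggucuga
miR-363: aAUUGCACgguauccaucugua
miR-92a: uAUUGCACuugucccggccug

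Compared base by base from the 5′ end, miR-106a differed from miR-17 at 1 of 23 positions and from miR-20b at 2 of 23. miR-18b differed from miR-18a at 2 of 23 positions, and miR-25 differed from miR-92a at 3 of 21. miR-106b differed from miR-106a at 3 of 21 positions and from miR-93 at 5 of 21. The files used here hold no probe sequences, so the share of a signal that comes from a near-identical relative cannot be told apart. The mature miR-19b and miR-92a are encoded in both miR-106a~miR-363 and miR-17~92 with the same sequence, and the array cannot assign their signal to a locus.

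The Febit array captures a miRNA on its probe, lengthens it with biotinylated nucleotides and stains these with streptavidin-phycoerythrin. Every miRNA has 8 spots. The array of wt clone 1 was the dimmest, at a median spot intensity of 33.6, against 84.0 to 110.1 for the other 3. The 7 fibroblast and mesenchymal miRNAs listed as markers (among them miR-21, miR-143 and miR-199a-3p) had median spot intensities from 570.4 to 7839 over all clones. Listed markers of other cells reached at most 136.8 for 7 epithelial, 73.0 for 7 pluripotency, 112.4 for 5 blood, 314.4 for 4 muscle and 212.6 for 1 endothelial miRNA. Of 3 neural miRNAs 1 exceeded 500 in some clone, with a highest value of 682.6. The part of these markers in the results was not tested.

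Members of both clusters showed small differences between the genotypes, all towards lower levels in Junb-/- MEFs, and none passed the test. Of all 710 miRNAs, limma at an adjusted p under 0.05 called 6 lower (0.845%) and 4 higher (0.563%) upon loss of Junb. Among the 7 members 0 were called, and 0 had an unadjusted p under 0.05, against 74 of 710 miRNAs (10.4%). The split of calls moved to 10 higher and 19 lower with cyclic loess and to 2 and 2 with the authors' normalized values. All 7 log2 fold changes lay below 0, which held for 45.6% of all miRNAs, although miR-106b turned to 0.022 without normalization and miR-18b to 0.29 with the authors' values. Their median was -0.33, beside 0.044 over all miRNAs. Members of a cluster share a transcript and those of a seed family resemble each other in sequence, so the members do not count as separate observations.

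As deposited, with no scaling between arrays, the 3 members of miR-106b~miR-25 were bright and had similar intensities in all clones. The array of wt clone 1 was the dimmest, so similar intensities need not mean similar levels relative to the rest of an array. The median intensity over the spots of miR-106b was 908 and 976 in wt clones 1 and 2, against 841.6 and 960.8 in the Junb-/- clones. The genotypes overlapped, and the lowest exceeded the offset of 50 many times over. miR-93, which shares the miR-17 seed, had 1067 and 972 in wt clones and 907 and 981 in Junb-/- clones. miR-25, of another seed family, had 817.6 and 725.6 in wt clones and 712.1 and 793.8 in Junb-/- clones. For both, Junb-/- clone 2 lay between the wt clones and Junb-/- clone 1 below them.

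In miR-106a~miR-363 the intensities split into bright and dim members. miR-106a, the member closest in sequence to miR-17, had median intensities of 1681 and 1131 in wt clones and 988.5 and 1328 in Junb-/- clones. miR-20b, also of the miR-17 seed, had 1031 and 918 in wt clones and 617 and 842 in Junb-/- clones. For miR-20b both Junb-/- clones lay below both wt clones, while for miR-106a Junb-/- clone 2 lay above wt clone 2. miR-18b was dim, with 21.0 and 86.3 in wt clones and 72.4 and 78.5 in Junb-/- clones. miR-363, which closes the cluster, was dim as well, with 23.7 and 60.4 in wt clones and 11.6 and 22 in Junb-/- clones. Values of this size are close to the offset that was added before log2 was taken. The log2(intensity + 50) scale therefore draws differences of these dim members towards 0, whether they come from a change or from noise. The spots of these dim members also disagreed, those of miR-18b running from 0 to 432.6 in wt clone 1 and those of miR-363 from 1.6 to 398.1 in Junb-/- clone 1.

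**Figure D1:**
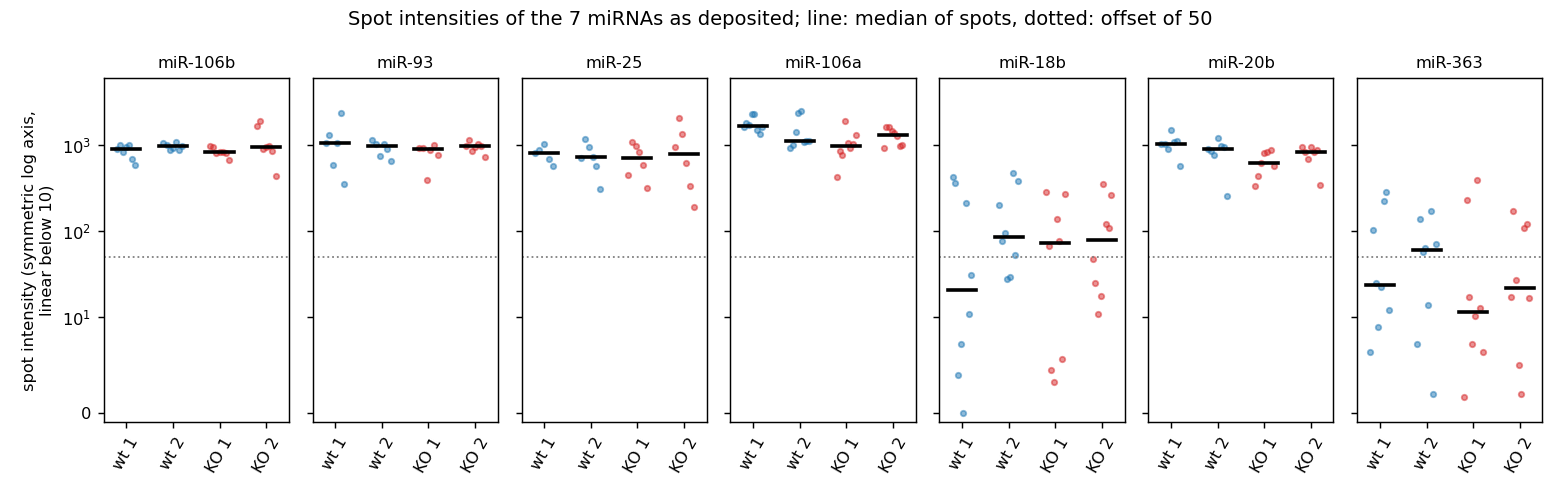
Spot intensity (symmetric log axis, linear below 10) of the 7 miRNAs in wt clones (blue) and Junb-/- clones (red), with 1 point per spot that had a value, a black line at the median over spots and a dotted line at the offset of 50. The medians of miR-18b and miR-363 lie between 11.6 and 86.3 in all 4 clones, while those of the other 5 miRNAs lie between 617 and 1681.

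After normalization, miR-106b was at nearly the same level in both genotypes. Its log2 level was 10.01 and 9.77 in wt clones 1 and 2, against 9.89 and 9.73 in Junb-/- clones 1 and 2. The genotypes thus overlapped. The mean was 9.89 ± 0.17 (SD, n = 2 clones) in wt and 9.81 ± 0.11 (SD, n = 2) in Junb-/- MEFs. limma gave a log2 fold change of -0.076 with a standard error of 0.35 and an adjusted p of 0.965. In the main setting the 95% interval ran from -0.83 to 0.68 and so did not reach a log2 value of -1, a halving. Its lower end depended on the processing. It lay at -0.87 with cyclic loess, but at -1.74 with median scaling and -1.79 with the authors' values, beyond a halving. Of 7 spots with a value on all arrays, the Junb-/- mean was lower at 5.

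miR-93 and miR-25, encoded downstream of miR-106b on the same transcript, varied more between the wt clones than between the genotypes. The log2 level of miR-93 was 10.29 and 9.65 in wt clones and 9.79 and 9.71 in Junb-/- clones, with both Junb-/- clones inside the range of the wt clones. By limma its log2 fold change was -0.22 (95% interval -1.0 to 0.57, adjusted p = 0.907). The log2 level of miR-25 was 9.95 and 9.17 in wt clones and 9.58 and 9.22 in Junb-/- clones, again inside the wt range. By limma it changed by -0.16 on the log2 scale (95% interval -0.98 to 0.66, adjusted p = 0.933). The Junb-/- mean of miR-25 was lower at 3 of 5 spots with a value on all arrays, so neither direction prevailed by more than 1 spot.

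miR-106a had the largest difference among the members, though it did not pass the test. Its log2 level was 11.02 and 10.35 in wt clones and 10.13 and 10.10 in Junb-/- clones, so that both Junb-/- clones lay below both wt clones. The mean was 10.68 ± 0.47 (SD, n = 2) in wt and 10.11 ± 0.020 (SD, n = 2) in Junb-/- MEFs. The log2 fold change was -0.57, with a standard error of 0.37, a 95% interval of -1.36 to 0.22 and an adjusted p of 0.702 by limma. The Junb-/- mean was lower at all 8 spots, by log2 values from -1.08 to -0.29. Spots are repeats within an array and add no clones.

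miR-20b had a log2 level of 10.26 and 9.40 in wt clones and 9.49 and 9.26 in Junb-/- clones. Wt clone 1 stood above the other 3 clones, and wt clone 2 lay between the Junb-/- clones. limma put the log2 fold change of miR-20b at -0.46 (95% interval -1.28 to 0.37, adjusted p = 0.762). The dim miR-18b had 7.30 and 7.11 in wt clones and 6.91 and 6.83 in Junb-/- clones, without overlap. limma put its log2 fold change at -0.33 (95% interval -1.08 to 0.42, adjusted p = 0.837), and single spots gave values from -1.70 to 1.93. The Junb-/- mean of miR-18b was lower at 5 of 8 spots. Its log2 fold change turned to 0.12 with the median over spots and to 0.29 with the authors' values. miR-363 had 7.24 and 6.48 in wt clones and 6.59 and 6.38 in Junb-/- clones, with the same order of clones as miR-20b. Its log2 fold change by limma was -0.37 (95% interval -1.18 to 0.44, adjusted p = 0.831). Junb-/- clones below both wt clones were thus found for 2 of 7 members, miR-106a and miR-18b, beside 17.3% of all miRNAs.

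**Figure D2:**
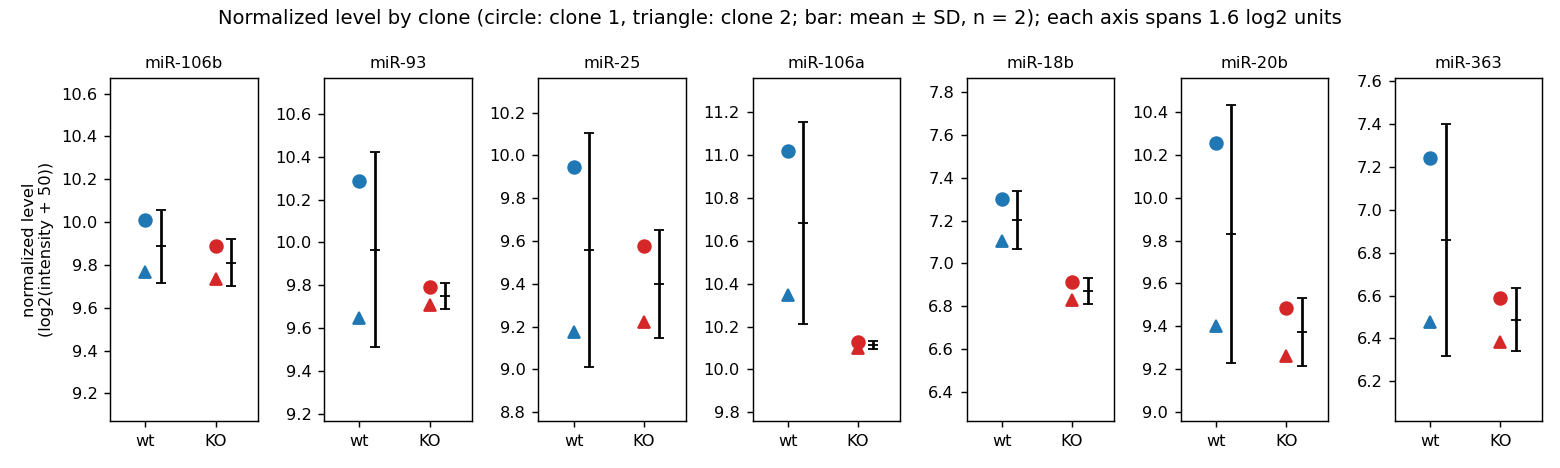
Normalized log2 level of each miRNA (vertical axis, log2(intensity + 50), with the same span of log2 units in every panel) in wt clones (blue) and Junb-/- clones (red), where circles are clone 1, triangles are clone 2 and bars are the mean ± SD (n = 2). Wt clone 1 is the highest clone in all 7 panels, and only miR-106a and miR-18b have both Junb-/- clones below both wt clones.

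For 6 of the 7 members, all but miR-18b, the wt clones differed more from each other than the genotype means did, which held for 60.1% of all miRNAs. All 7 members were highest in wt clone 1, which held for 26.3% of all miRNAs. The trait was not particular to them, as all 6 miRNAs of miR-17~92 were highest in that clone too. Wt clone 2 minus wt clone 1 had a median of -0.67 over the members on the log2 scale, ranging from -0.85 to -0.19. This median was -0.60 over miR-17~92 and -0.042 over all miRNAs. For the members, the Junb-/- clones differed by a median of -0.15. Without wt clone 1 the median log2 fold change of the members was 0.010, and 3 of 7 (miR-106a, miR-18b and miR-20b) remained below 0. Without wt clone 2 it was -0.55, all 7 were below 0, and miR-106a (-0.91, unadjusted p = 0.0391) and miR-20b (-0.88, unadjusted p = 0.0466) each had an adjusted p of 0.516 in limma. In that fit the lone wt clone is assumed to vary like the Junb-/- clones. The array of wt clone 1 was also the dimmest, and how much of its higher normalized levels comes from the scaling of that array was not tested.

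The median log2 fold change was -0.16 (from -0.22 to -0.076) over the 3 members of miR-106b~miR-25 and -0.41 (from -0.57 to -0.33) over the 4 of miR-106a~miR-363. The ranges did not meet, but the 95% intervals of all 7 members overlapped one another. Without wt clone 1 the medians were 0.10 and -0.13. When intensities were scaled to the median of each array, they were -0.76 and -0.75, so the order of the clusters was not kept under that scaling.

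**Figure D3:**
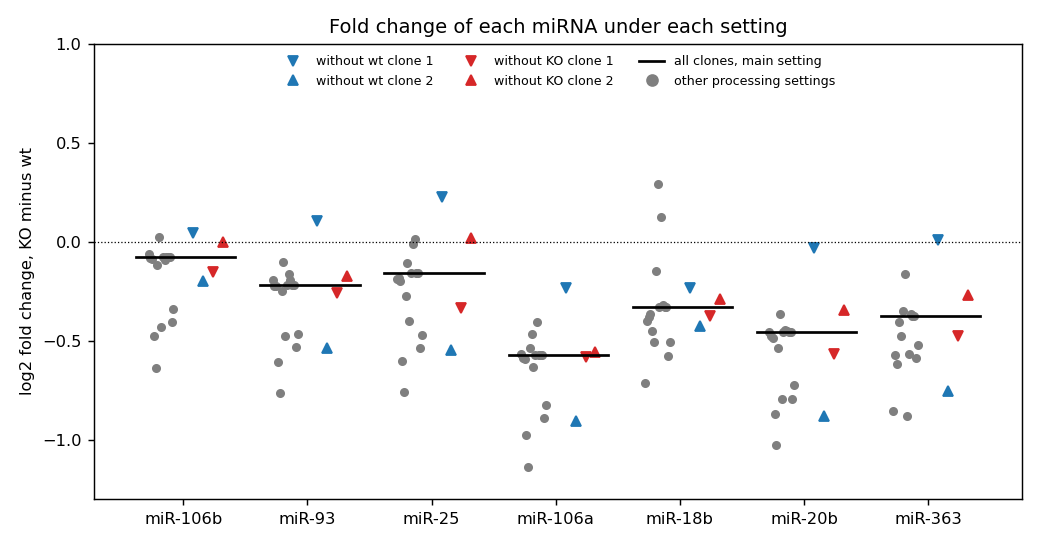
Log2 fold change (vertical axis, Junb-/- minus wt) of each miRNA over all clones (black line), under other processing settings (grey points) and with 1 clone left out (blue and red triangles). Leaving out wt clone 1 brings miR-106b, miR-93, miR-25 and miR-363 to 0.045, 0.10, 0.23 and 0.010, while miR-106a and miR-20b are below 0 in every setting shown.

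Within each seed family the members of both clusters had smaller differences than their relatives from miR-17~92, except that miR-106a exceeded and miR-20b slightly exceeded miR-17. The 6 miRNAs of miR-17~92 had a median log2 fold change of -0.94. With a clone left out this median ran from -1.25 to -0.69, and it was nearest to 0 without wt clone 1. All 6 had both Junb-/- clones below both wt clones, beside 17.3% of all miRNAs. In limma 4 of them had an unadjusted p under 0.05, beside 10.4% of all miRNAs, and 0 passed after adjustment. Among the 6, miR-19b and miR-92a are also encoded in miR-106a~miR-363. miR-92a passed with cyclic loess (adjusted p = 0.0153 from limma). In the family with the miR-18 seed, miR-18a had a log2 fold change of -1.66 (limma, 95% interval -2.49 to -0.83, adjusted p = 0.0512) against the -0.33 of miR-18b. miR-18a passed under 5 of 19 alternatives. Its adjusted p from limma was 0.0158 with the clone number as a block and 0.0371 with trend and robust settings. It was 1.38e-04 with cyclic loess, 0.00886 with dim probes filtered out and 0.0169 with the median shift after the offset. limma's prior, which pools the spread over all miRNAs, had 11.8 degrees of freedom in the main fit. It had 721 with cyclic loess and infinitely many with the filter and the median shift. There the clone spread of miR-18a itself, and of miR-92a with cyclic loess, carried almost no weight. The log2 ratio of miR-18a to miR-18b within an array, read here only for its change between clones, was 1.92 and 1.19 in wt clones and 0.15 and 0.31 in Junb-/- clones. The change in this ratio was -1.33, and the low intensity of miR-18b limits what its probe could show. miR-18a was dim in Junb-/- clones as well, at median intensities of 45.5 and 65.1 against 251.9 and 411.3 in wt clones. Its fold change thus depends on the offset, at -2.11 with an offset of 16 and -2.52 with none.

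In the family of miR-25, the log2 fold change was -1.16 for miR-92a (adjusted p = 0.184 from limma), -0.37 for miR-363 and -0.16 for miR-25. The log2 ratio of miR-92a to miR-25 was -0.33 and -0.20 in wt clones and -1.45 and -1.08 in Junb-/- clones, a change of -1.0 with no overlap between genotypes. The median intensities of both probes were well above the offset in all clones. Those of miR-92a were 602.0 and 660.4 in wt and 287.9 and 478 in Junb-/- clones. Single spots of miR-92a disagreed, running from 38.4 to 814.4 in Junb-/- clone 1 and from 49 to 1123 in Junb-/- clone 2. The lowest spot thus lay below the offset in both Junb-/- clones. The Junb-/- mean of miR-92a was lower at 7 of 8 spots, with log2 differences from -2.51 to 0.16. In the family with the miR-17 seed, miR-17 had a log2 fold change of -0.44, close to the -0.57 of the near-identical miR-106a, and miR-20a had -0.95 against -0.46 for miR-20b. The log2 ratio of miR-20a to miR-20b changed by -0.49. miR-19a and miR-19b, whose seed no member shares, had log2 fold changes of -0.77 and -0.93. These pairs were chosen after their values had been seen. An exact permutation test of 2 clones against 2 cannot give a two-sided p below 0.333, and the changes in these ratios were not tested in another way.

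**Figure D4:**
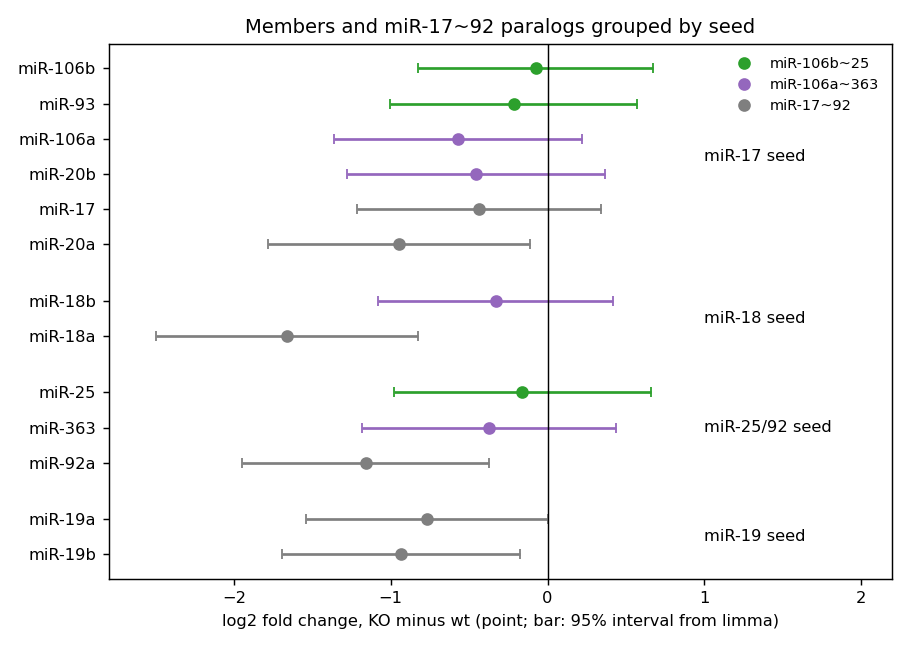
Log2 fold change (horizontal axis, Junb-/- minus wt; points) with 95% intervals from limma (bars) for the members of miR-106b~miR-25 (green) and miR-106a~miR-363 (purple) and for miR-17~92 (grey), grouped by seed. The intervals of all 7 members include 0, while those of miR-18a, miR-20a, miR-19b and miR-92a lie below it.

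Passenger strands, the arms of a hairpin that are usually degraded, were on the array for 3 of the 7 hairpins, as miR-106b*, miR-93* and miR-20b*. The median spot intensities of miR-106b* were 32.8 and 224 in wt clones and 40.8 and 246.8 in Junb-/- clones. Those of miR-20b* were 118.1 and 618.9 in wt clones and 28.7 and 440.8 in Junb-/- clones. In both genotypes clone 1 was low and clone 2 was high, and after normalization this order held for all 3 passenger strands. Clone 1 lay above clone 2 in both genotypes for all 7 unstarred members. Some of these differences were slight, with Junb-/- clone 2 minus clone 1 at -0.028 for miR-106a. The share of all miRNAs with either order was not counted. The normalized log2 fold changes were -0.32 for miR-106b*, -0.82 for miR-93* and -1.02 for miR-20b* (adjusted p = 0.893, 0.548 and 0.366 from limma), so 0 of 3 passed. Both Junb-/- clones lay below both wt clones for 2 of 3, miR-93* and miR-20b*, beside 17.3% of all miRNAs. For miR-93*, log2 levels were 8.21 and 8.41 in wt clones and 6.81 and 8.16 in Junb-/- clones. For miR-20b* they were 8.30 and 8.60 in wt clones and 6.87 and 7.99 in Junb-/- clones, with an unadjusted p of 0.0263 from limma.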

How the data were processed

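miRNAs of 2 wild type (wt) and 2 Junb-/- MEF clones were measured on single-colour Febit arrays, with a single array for each clone. The deposited files hold a linear intensity for each of the 8 spots of 710 miRNA names, without background, flag, slide or control columns. Scanner, image analysis and background correction were not given in the sources used here, nor was the method behind the normalized log2 values that the authors deposited for each miRNA and array. No intensity was negative, so the values were read as background-corrected and nothing was subtracted.

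Spots without a value (513 and 437 in wild type, 367 and 319 in Junb-/- clones) were left out. An offset of 50 was added, and log2 values were quantile-normalized between arrays and averaged per miRNA. All 710 miRNAs entered limma 3.58.1 (R 4.3.3), Junb-/- minus wild type, two-sided, with Benjamini-Hochberg adjustment and a threshold of 0.05. The prior had 11.8 degrees of freedom beside 2 residual ones. Quantile normalization and limma were tested on simulated levels of each miRNA. Spots, missing values and the offset were not simulated.

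The members and lists were chosen with earlier results of these data known. Named were the 7 members, the 6 miR-17~92 paralogs, the passenger strands of the member hairpins and, for each cluster, the 3 brighter miRNAs nearest in pattern. Lists of cell type markers were read for their intensities. Alternatives were other offsets, a floor, other normalizations, the authors' values, a filter on dim probes, other spot summaries, limma with trend and robust settings, a block for the clone number, and leaving out single clones after normalization. In the scaling alternatives intensities were scaled before the offset was added. A pair of settings that shift the log2 values after the offset was added after seeing the data. A normexp correction and a slide block were not run, as the files name neither a background nor a slide. Sequences and positions come from RefSeq tables of GRCm38.p6, and matplotlib 3.10.9 under Python 3.11.15 drew the plots.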

Additional observations from a re-analysis of the deposited data

How the results depend on the processing

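None of the 7 members passed limma's threshold under any of the 19 alternatives (adjusted p from 0.408 to 1.00), and miR-106a and miR-20b stayed below 0 in all. Directions of members turned for miR-106b without normalization (0.022, with the median of all miRNAs at 0.23), for miR-18b with the authors' values (0.29) and with the median over spots (0.12), and for miR-25 with spots measured on all 4 arrays (0.012). With a clone left out, log2 fold changes ran from -0.20 to 0.045 for miR-106b, -0.54 to 0.10 for miR-93, -0.55 to 0.23 for miR-25 and -0.76 to 0.010 for miR-363, and the values above 0 came without wt clone 1 or, for miR-106b (0.00041) and miR-25 (0.018), without Junb-/- clone 2. Without wt clone 1 they were 0.045, 0.10, 0.23 and 0.010.

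The median of miR-106b~miR-25 was -0.60 with 75th percentile scaling, -0.76 with median scaling, -0.43 with the authors' values, -0.53 and -0.47 with the 75th percentile and median shifts after the offset, and -0.54 to 0.10 with a clone left out. These shifts, added after seeing the data, moved the median of all miRNAs to -0.20 and -0.13. The median of miR-106a~miR-363 was -0.75 with median scaling, -0.71 with the authors' values, -0.69 with the 75th percentile shift and -0.82 to -0.13 with a clone left out. That of all 7 was -0.76 with median scaling. The filter on dim probes left out miR-363.

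Calls of higher and lower miRNAs numbered 0 and 0 when no offset was added, with 75th percentile scaling, with median scaling, without normalization and with the median over spots (44, 62, 61, 31 and 75 at an unadjusted p under 0.05 in limma). A floor of 16 gave 1 and 3, cyclic loess 10 and 19, the authors' values 2 and 2, and trend and robust settings 8 and 9. They were 2 and 6 with the 75th percentile shift, 3 and 10 with the median shift, and 0 to 5 and 0 to 7 with a clone left out. Without wt clone 1 or wt clone 2 both counts were 0 (71 and 62 at an unadjusted p under 0.05), and without Junb-/- clone 2 they were 2 and 7. The cause of these shifts was not tested. A figure legend of the study speaks of clone pairs without saying what pairs them, and the clones were treated as unpaired. With the clone number as a replicate block the counts were 6 and 10, no member passed and miR-18a did. Within same-numbered clones, 5 of 7 members (all but miR-93 and miR-25) were lower in the Junb-/- clone both times, as were 28.5% of all miRNAs. Deviations of same-numbered clones correlated at 0.31 over miRNAs, which 2 pairs do not settle. Without flags or negative controls, no call of presence was possible for the dim miR-18b and miR-363.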

Other observations

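Among 349 other miRNAs brighter than the median, those nearest in pattern over the 4 arrays were found by the root mean square distance between log2 levels centred on their own mean. Nearest to the mean profile of miR-106b~miR-25 were miR-709 (distance 0.039, log2 fold change -0.085), miR-710 (0.086, -0.24) and miR-99b (0.10, -0.18), beside a median distance of 0.46 over the 349. Nearest to miR-106a~miR-363 were miR-669h-5p (0.055, -0.49), miR-1962 (0.055, -0.52) and miR-17 of miR-17~92 (0.067, -0.44), beside a median distance of 0.50. The other miR-17~92 miRNAs were not among the 3 nearest of either cluster. With 4 arrays, such nearness describes these arrays only.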
